A study of Mus musculus with 4 samples.

Results

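The miRNAs described here come from 5 hairpins, Mir532, Mir188, Mir362, Mir501 and Mir500, which lie together on the X chromosome of the mouse. They were measured by small RNA sequencing of extracellular vesicles, the membrane particles that cells release with RNA inside. The members are the rows of 5 listed mature IDs (miR-532-5p, miR-188-5p, miR-362-5p, miR-500-3p and miR-501-3p) and the row of the other arm of each hairpin, 10 of 2110 rows in all. The rows were chosen by ID and position, but the group itself was selected on knowledge of its damaged-against-WT log2 fold changes in these same libraries. The differences between the groups are therefore given as a description.

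The vesicles came from C2C12 cells, an established line of mouse myoblasts. All 4 libraries carry the genotype label WT and came from cells in DMEM with 10% bovine serum. The 2 damaged libraries are from cells given hydrogen peroxide, whose dose and time the labels do not state, and the 2 WT libraries have the treatment label WT. The labels do not tie the replicates to separate cultures, so the spread between them may be technical. Serum miRNAs of cattle with the same sequence would be counted with the mouse ones, and lower abundance in these bulk libraries does not tell fewer vesicles with a miRNA from less of it per vesicle.

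A miRNA hairpin is cut into a duplex, and either strand, the 5p or the 3p arm, can be loaded into an Argonaute protein, where bases 2 to 8 (the seed) pair with target messages. Neighbouring hairpins in an intron are often made from the transcript of the host gene. The host here is Clcn5, which encodes a chloride and proton exchanger of endosomes and is the gene mutated in Dent disease. Among the members, miR-501 has been studied in muscle stem cells and regenerating fibres, miR-188-5p in the choice of bone marrow stromal cells between bone and fat, and miR-362-5p as a repressor of the deubiquitinase CYLD.

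All 5 hairpins lie on the minus strand of 1 Clcn5 intron of 103648 bases (mm10, chromosome X, 7213011 to 7316658), between exons 3 and 4 of the transcript Clcn5-202 in GENCODE vM21. The intron is also that between exons 2 and 3 of Clcn5-203. From the 5′ end of the intron the order is Mir532 (7248402 to 7248497), Mir188 (7247989 to 7248056), Mir362 (7241982 to 7242046), Mir501 (7241243 to 7241351) and Mir500 (7237683 to 7237774). The hairpins span 10815 bases. Mir188 follows Mir532 after 345 bases and Mir501 follows Mir362 after 630 bases, whereas 5942 bases separate Mir188 from Mir362 and 3468 separate Mir501 from Mir500. No other counted row lay on that strand within 50000 bases of a member, and no member row shared bases with an entry on the other strand.

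RefSeq (GRCm38.p6) gave the mature sequences of 9 of the 10 members. They are shown in full because the arms resemble each other across hairpins, with the seed in capitals and the coordinates on chromosome X, minus strand.
miR-532-3p (7248419 to 7248440): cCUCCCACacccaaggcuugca
miR-188-3p (7247992 to 7248012): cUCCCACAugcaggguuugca
miR-188-5p (7248031 to 7248051): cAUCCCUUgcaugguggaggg
miR-362-5p (7242019 to 7242042): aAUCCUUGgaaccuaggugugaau
miR-500-5p (7237730 to 7237754): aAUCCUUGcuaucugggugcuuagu
miR-501-5p (7241307 to 7241328): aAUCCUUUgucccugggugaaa
miR-501-3p (7241270 to 7241291): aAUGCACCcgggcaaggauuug
miR-500-3p (7237695 to 7237716): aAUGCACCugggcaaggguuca
miR-362-3p (7241984 to 7242005): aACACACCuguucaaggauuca
miR-532-5p lies at 7248456 to 7248477.

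The 9 sequences held 7 seeds. miR-500-3p and miR-501-3p share the seed AUGCACC and 18 of 22 bases. With the base of miR-500-3p first and positions counted from the 5′ end, their differences are U9C, G18A, C21U and A22G. miR-362-5p and miR-500-5p share the seed AUCCUUG and, laid end to end from base 1, 16 of 24 bases. miR-501-5p has another seed, AUCCUUU, which differs from that of miR-500-5p by U8G (miR-501-5p first). The 3p arms of the adjacent hairpins Mir532 and Mir188 share CUCCCACA, which starts at base 2 of miR-532-3p and at base 1 of miR-188-3p, so their seeds are shifted by 1 base. GC content ran from 40.9% in miR-362-3p to 63.6% in miR-532-3p. Seeds could be compared only among the 1734 rows with a RefSeq mature sequence, and not for miR-532-5p. Among these rows, 2 outside the cluster carry a seed of a member, miR-329-3p that of miR-362-3p and miR-7061-3p that of miR-188-5p. Both had 0 counts in all 4 libraries.

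Library totals ran from 4577668 to 7638663 counts, and a row at 0 may still hold up to 3 counts, that is 0.393 to 0.655 CPM (counts scaled to library size). CPM values below are scaled by TMM. The annotated member rows are 21 to 25 bases long, and levels are not divided by length. How evenly different sequences were captured in the libraries was not measured. Ratios between members, hairpins or arms below are therefore ratios of counts, not of molecules. The counts do not give the lengths of the reads. The muscle markers miR-1a-3p, miR-133a-3p, miR-133b-3p and miR-206-3p held 29.5% and 33.4% of counts in the WT libraries and 35.5% and 38.1% in the damaged ones, and the part of this difference in the results below was not tested. The 8 blood rows held 0.148% to 0.172%, with 2 at 0, and the 5 epithelial rows at most 0.0012%, with 2 at 0. Of 8 neural rows 7 were at 0, as were both endothelial rows and the liver row. Of 6 muscle rows 1, miR-1a-2-3p, was at 0. That row, both blood zeros, 5 of the neural zeros, both endothelial zeros and the liver zero share bases with an opposite-strand entry. These zeros do not show absence, and the muscle and blood shares cover only part of their lists.

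The cluster as a whole was a small part of the vesicle miRNAs, and nearly all of it was miR-532-5p. The 10 rows took 0.470% of all counts in WT replicate 1 (exact 95% interval 0.463 to 0.476) and 0.456% in WT replicate 2 (0.451 to 0.460). In damaged replicate 1 their share was 0.361% (0.357 to 0.366). In damaged replicate 2 it was 0.372% (0.368 to 0.376). Intervals here cover counting error only. miR-532-5p ranked 29 among all rows in both WT libraries, and 36 and 37 in the damaged libraries. It held 92.4% and 93.3% of the cluster's counts in WT replicates 1 and 2, against 88.8% and 85.3% in damaged replicates 1 and 2. This follows from the lower CPM of miR-532-5p and the higher sum of the other rows, given below, and is not a further result.

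**Figure D1:**
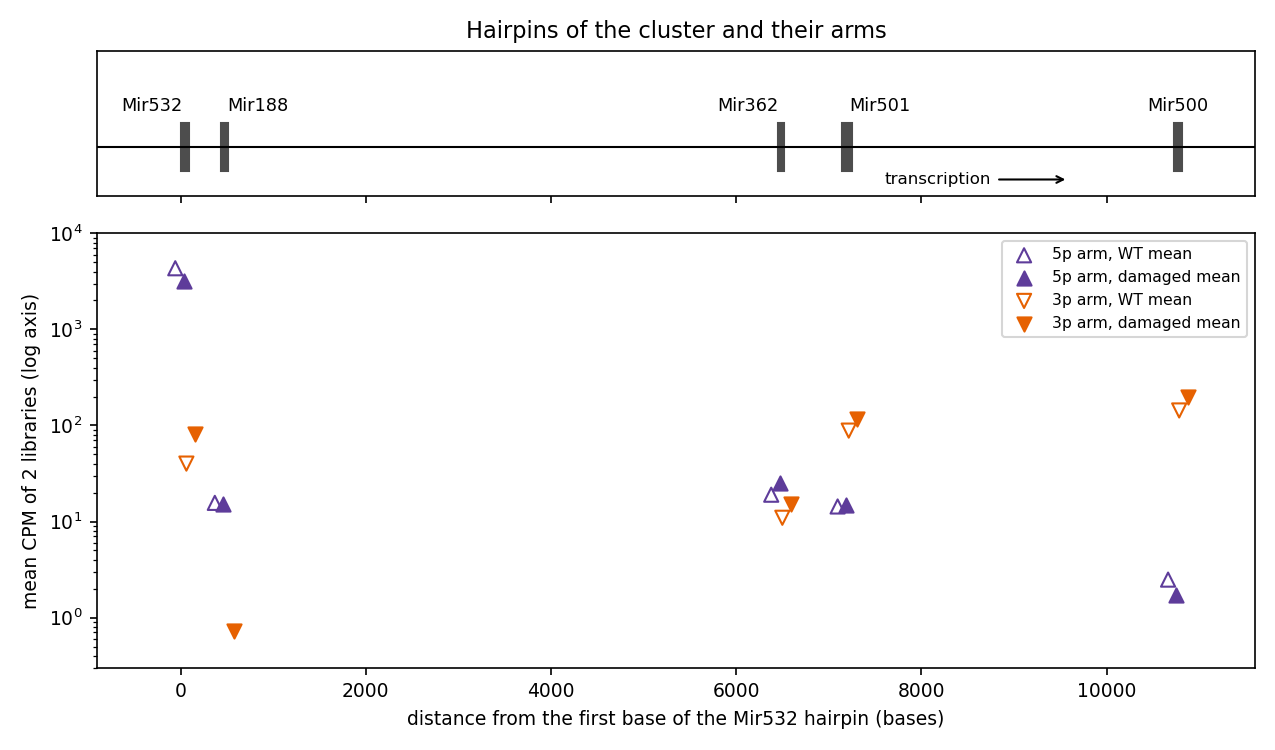
Top, the 5 hairpins to scale along 10815 bases of the Clcn5 intron in the direction of transcription; bottom, the mean CPM of each arm (log axis, 2 libraries per group, open symbols WT, filled symbols damaged, shifted sideways for legibility, means of 0 not drawn). The 5p arm of Mir532 stands far above every other arm, and Mir501 and Mir500 carry more 3p than 5p.

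The adjacent hairpins Mir532 and Mir188 differed greatly in level although they share an intron. Summed over both arms, Mir532 had WT and damaged means of 4370 ± 101 and 3248 ± 53.4 CPM (SD, n = 2), and Mir188, the next hairpin, at 15.6 ± 2.39 and 16.0 ± 6.46 CPM. The counts of Mir532 were 318 and 248 times those of Mir188 in WT replicates 1 and 2, and 160 and 281 times in damaged replicates 1 and 2. Over 65 pairs of neighbouring hairpins on 1 strand, at most 1000 bases apart and with at least 50 counts together in every library, the median absolute log2 ratio was 1.81. For Mir532 and Mir188 it was 7.92, and only Mir363 and Mir92-2 were farther apart, at 8.06 (named after its value was seen, and the mature sequence of Mir92-2 is also made from another locus). The pair of Mir362 and Mir501 was near the middle of that range, at 1.74, with Mir501 2.23 to 5.35 times Mir362 over the 4 libraries. In WT and damaged, Mir362 held 30.0 ± 9.81 and 40.7 ± 10.5 CPM (SD, n = 2). Mir501 held 102.7 ± 28.8 and 131 ± 18.0 CPM, and Mir500 146 ± 16.9 and 202 ± 30.2 CPM.

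**Figure D2:**
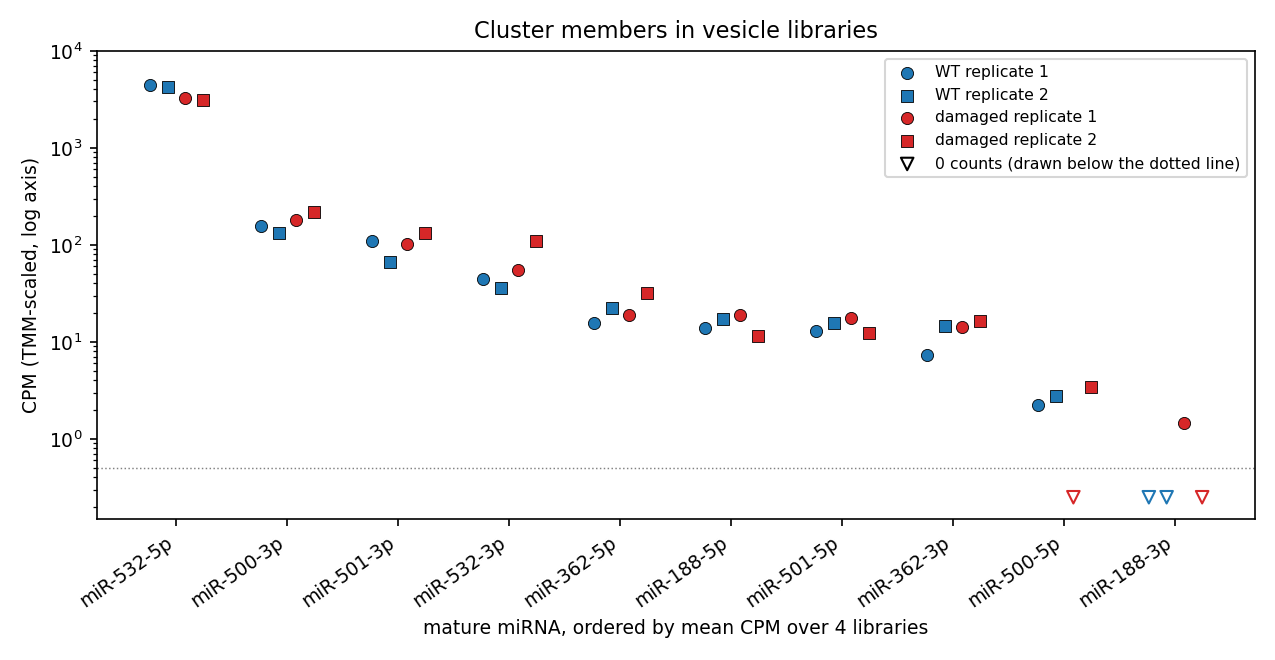
CPM of each member in each library (log axis; blue WT, red damaged; circles replicate 1, squares replicate 2; open triangles, 0 counts). miR-532-5p lies between 3102 and 4398 CPM and no other member above 220 CPM. Only miR-532-5p, miR-500-3p and miR-532-3p have damaged and WT libraries that do not overlap, beside 59.9% of the 536 tested rows.

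In order of mean level over the 4 libraries, miR-532-5p came first, 21.8 times above miR-500-3p, with no overlap between their libraries. miR-500-3p was 1.68 times miR-501-3p, and miR-501-3p 1.67 times miR-532-3p. The libraries of these 3 neighbours overlapped in level, although the order was the same within every library. miR-532-3p was 2.75 times the next, with no overlap. miR-362-5p, miR-188-5p, miR-501-5p and miR-362-3p formed a lower group between 7.31 and 31.9 CPM, in which no neighbour differed from the next in all 4 libraries. miR-500-5p and miR-188-3p were close to the limit of detection.

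The arm that held most counts of a hairpin in the vesicles differed along the cluster. Mir532 and Mir188 gave mostly the 5p arm, Mir362 both arms, and Mir501 and Mir500 mostly the 3p arm, in all 4 libraries. The 5p arm made up 99.0% and 99.2% of Mir532 counts in WT replicates 1 and 2, and 98.3% and 96.6% in damaged replicates 1 and 2. For Mir362 it made up 68.3% and 60.5% in WT and 57.0% and 66.3% in damaged, with overlapping groups. For Mir501 it made up 10.6% and 19.0% in WT and 14.8% and 8.60% in damaged, again overlapping. For Mir500 it made up 1.40% and 2.06% in WT, 0% in damaged replicate 1 and 1.55% in damaged replicate 2. The 0 of miR-500-5p among 1236 hairpin counts has an exact 95% upper bound of 0.298% (0.243% at 3 counts), below the lower bounds of the exact intervals in the other libraries (0.676% to 1.28%). Thus the 2 damaged libraries differed from each other in this arm by more than counting error.

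**Figure D3:**
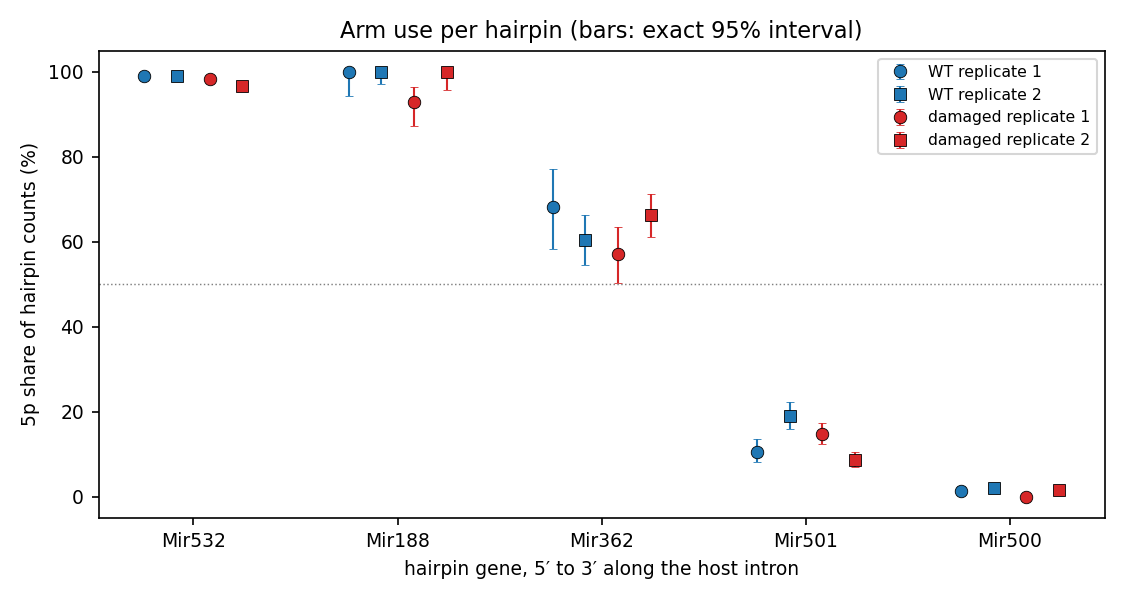
Share of each hairpin's counts that fell on the 5p arm (%), per library, with exact 95% binomial intervals; hairpins are in order along the intron. The share goes from 96.6% to 99.2% at Mir532 to between 0% and 2.06% at Mir500, and only Mir532 has damaged libraries outside the WT range on 1 side. The arm ratio of the groups did not overlap in 48.8% of 209 hairpins.

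Among 209 hairpins with 1 row per arm and at least 50 counts in every library, 120 (57.4%) had more 5p and 80 (38.3%) more 3p in all 4 libraries. Most members were not extreme in this respect, while Mir362 was among the most balanced. Arm asymmetry was taken as the absolute value of the log2 ratio averaged over the 4 libraries. It was larger than that of Mir532 in 123 of the 209, than that of Mir500 in 104 and than that of Mir362 in 199. For Mir532, the log2 ratio of 5p to 3p (0.5 counts added to each arm) was 6.64 and 6.88 in WT and 5.87 and 4.83 in damaged. The groups do not overlap, with a mean difference of -1.41. Groups did not overlap in 48.8% of the 209 hairpins. Of all 209, 47 had a larger absolute difference than Mir532. Mir500 (-2.82) and Mir188 (-1.98) were among these, with overlapping groups and a minor arm at few or 0 counts. miR-188-3p, the other arm of miR-188-5p, had 10 counts in damaged replicate 1 (exact Poisson 95% interval 4.8 to 18.4) and 0 counts in the other 3 libraries.

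The study asked whether vesicles of damaged cells carry other miRNAs than those of healthy cells. For the cluster the 2 arms of Mir532 went apart: miR-532-5p was lower and miR-532-3p higher in both damaged libraries than in both WT libraries, but no member passed the test over all rows. In edgeR's quasi-likelihood test with Benjamini-Hochberg adjustment at 0.05, 9 members had enough counts to be tested and 0 were called, against 9.51% of the 536 tested rows. At an unadjusted p under 0.05 there were 3 members, against 30.8% of tested rows. DESeq2 called 2 members, miR-532-5p and miR-532-3p (19.8% of tested rows), and limma-voom 1, miR-532-5p (14.7%). edgeR itself called both with the replicate number as a block (23.7%), miR-532-3p alone with no filter on low counts (13.1% of the rows tested there) and miR-532-5p alone with a filter at 10 CPM in 2 libraries (28.6% of the rows tested there). CPM of the groups did not overlap for 3 of the 9 members, against 59.9% of tested rows.

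miR-532-5p (MIMAT0002889), the dominant member, stood at 4398 and 4263 CPM in WT replicates 1 and 2 and at 3231 and 3102 CPM in damaged replicates 1 and 2. Replicates of each group lay close together, and the groups were apart. The means were 4330 ± 95.2 and 3166 ± 91.2 CPM (SD, n = 2). The fitted log2 fold change was -0.45 ± 0.11 (SE), or 1.37-fold lower in damaged.

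Its partner arm miR-532-3p (MIMAT0004781) had 44.1 and 36.1 CPM in WT and 55.3 and 108.8 CPM in damaged replicates 1 and 2. Both damaged libraries were higher, but damaged replicate 2 lay far above damaged replicate 1. The log2 fold change was 1.04 ± 0.37 (SE), or 2.05-fold. It was 0.46 without damaged replicate 2 and 1.42 without damaged replicate 1.

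Of the arms that share the seed AUGCACC, miR-500-3p (MIMAT0003507) had 155 and 131 CPM in WT and 180 and 220 CPM in damaged replicates 1 and 2. The damaged libraries were both above the WT ones, with a log2 fold change of 0.48 ± 0.19 (SE). miR-501-3p (MIMAT0003509) had 110 and 66.7 CPM in WT and 101 and 131 CPM in damaged. WT replicate 1 lay between the damaged libraries, and the log2 fold change was 0.40 ± 0.30 (SE). It moved when 1 library was left out, to 0.11 without WT replicate 2 and 0.72 without WT replicate 1, where miR-500-3p had 0.39 and 0.53. Without damaged replicate 2 it was 0.18.

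Of the arms with the seed AUCCUUG, miR-362-5p (MIMAT0000706) had 15.7 and 22.3 CPM in WT and 19.0 and 31.9 CPM in damaged, with overlapping groups and a log2 fold change of 0.41 ± 0.38 (SE). miR-500-5p (MIMAT0017258) had 10 and 21 counts in WT and 0 and 26 in damaged replicates 1 and 2. The damaged libraries lay on both sides of the WT ones, so the fitted value (-0.52 ± 1.65, log2 and SE) says little. miR-501-5p (MIMAT0003508) had 13.1 and 15.6 CPM in WT and 17.5 and 12.4 CPM in damaged, and the damaged libraries enclosed the WT ones.

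miR-188-5p (MIMAT0000217) had 14.0 and 17.3 CPM in WT and 19.1 and 11.4 CPM in damaged, and here too the damaged libraries enclosed the WT ones. miR-362-3p (MIMAT0004684) had 7.31 and 14.6 CPM in WT and 14.3 and 16.2 CPM in damaged. The WT libraries differed more from each other than the damaged ones did, and the groups overlapped. The log2 fold changes of miR-501-5p, miR-188-5p and miR-362-3p were 0.05 ± 0.35, -0.04 ± 0.39 and 0.47 ± 0.44 (SE).

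**Figure D4:**
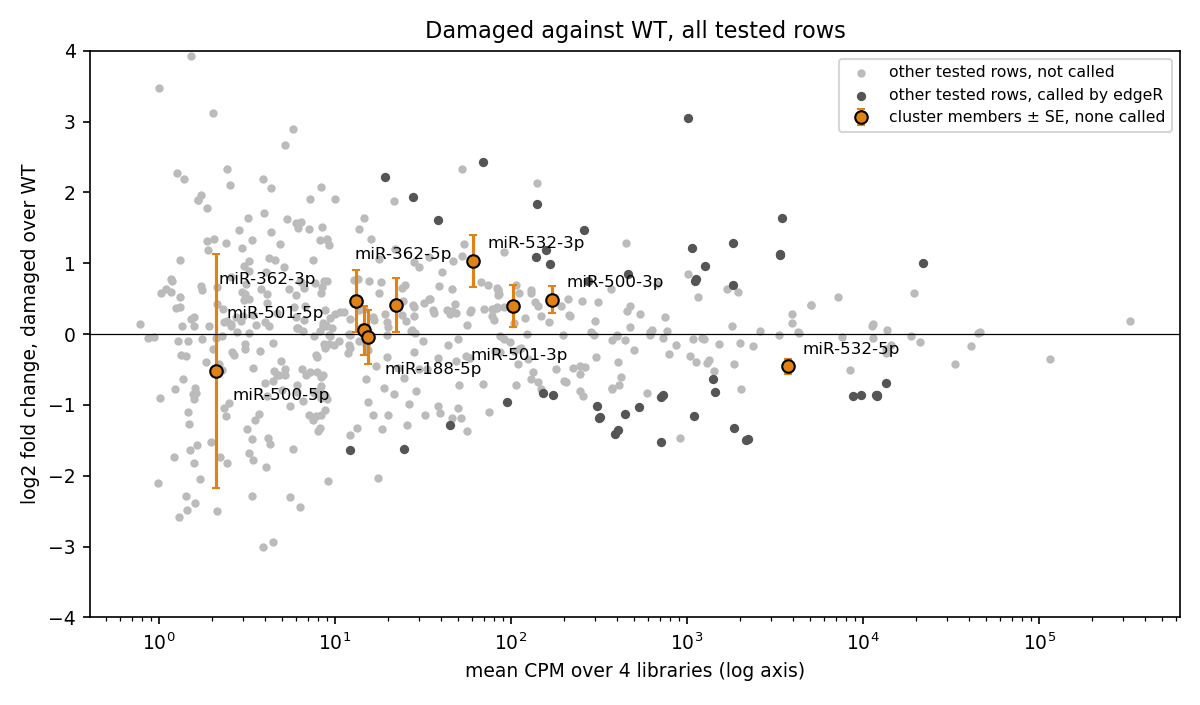
Log2 fold change of damaged over WT against mean CPM (log axis) for the 536 rows tested; orange points are the 9 tested members with SE bars, dark points rows called by edgeR, and 15 rows lie outside the axis. miR-532-5p at -0.45 and miR-532-3p at 1.04 are on opposite sides of 0, and no member is called.

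The sum of the cluster followed miR-532-5p. All 10 rows together stood at 4760 and 4570 CPM in WT replicates 1 and 2 and at 3638 and 3637 CPM in damaged replicates 1 and 2, a log2 fold change of -0.37 ± 0.10 (SE). Without miR-532-5p the other 9 rows summed to 361.8 and 306.5 CPM in WT and 408 and 535 CPM in damaged, which is 0.49 ± 0.18 (SE) in the other direction. Of the 8 other members that were tested, 6 had a positive and 2 a negative log2 fold change, beside 273 and 263 of all 536 tested rows. The signs of miR-362-5p, miR-362-3p, miR-501-5p, miR-188-5p and miR-500-5p changed in fits that left out 1 library. Over the 9 tested members the median was 0.40 and the median absolute value 0.45, beside 0.02 and 0.62 over all 536 tested rows.

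**Figure D5:**
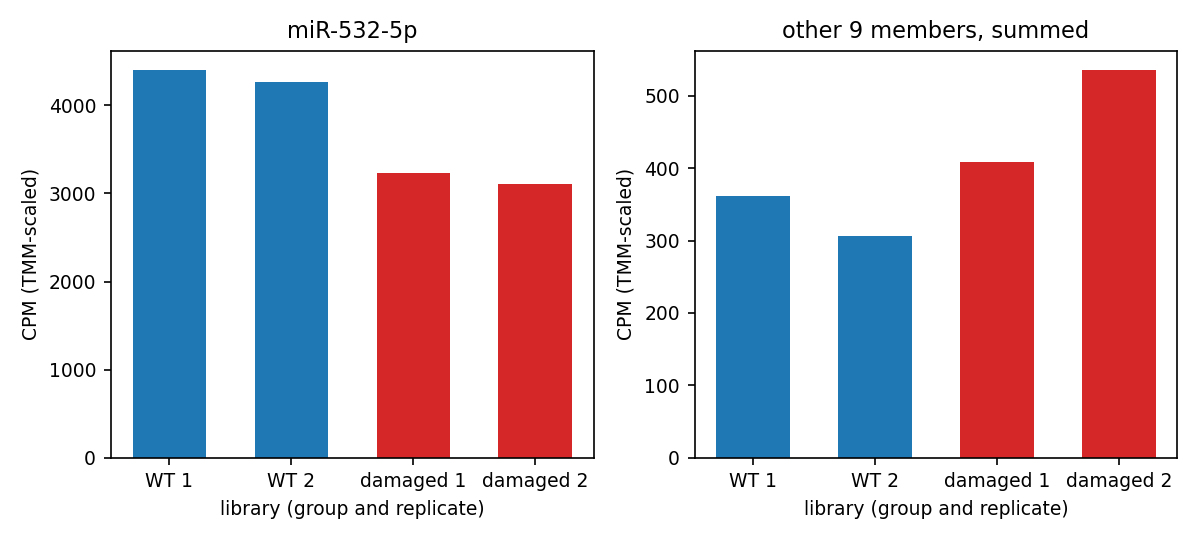
CPM of miR-532-5p (left) and of the other 9 members summed (right) in each library, with bars from 0 and separate axes (blue WT, red damaged). miR-532-5p is lower in both damaged libraries (3231 and 3102 CPM against 4398 and 4263), and the sum of the others is higher in both (408 and 535 CPM against 361.8 and 306.5).

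Of 71 tested X-linked rows that are no members, 1 was called higher and 4 lower, which is 7.04% beside 9.51% of all tested rows, with a median log2 fold change of -0.15. The 4 lower rows all belong to another polycistron, that of miR-322, miR-351 and miR-450a. They include both rows of miR-450a-5p, a miRNA thus counted more than once (log2 fold changes -1.17 and -1.19). In that polycistron 13 rows were tested (30.8% called), the median was -1.05, and 11 of 13 values were negative. Whether these rows differ from the members was not tested.

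The rows whose pattern over the 4 libraries was most like that of the summed members were miR-3068-5p, miR-425-3p, miR-7a-1-3p, miR-100-5p and miR-17-5p. Likeness was the root mean square difference of centred log2 CPM, which was 0.03, 0.03, 0.05, 0.05 and 0.08 for these and had a median of 0.51 over 527 rows. They lie on chromosomes 12, 9, 13, 9 and 14, so none is X-linked. The most alike, miR-3068-5p, had 1192 and 1102 CPM in WT and 929 and 914 CPM in damaged replicates 1 and 2. miR-100-5p, the most abundant of them, had 1579 and 1394 CPM in WT and 1101 and 1140 CPM in damaged. The sum is mostly miR-532-5p, and the measure rests on 4 libraries.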

How the data were processed

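Small RNA of vesicles was sequenced in 2 damaged and 2 WT libraries. The deposited values are raw read counts per mature miRNA row, made by the authors with BWA and featureCounts on mm10, per the submitters' processing notes, and featureCounts 2.0.1, per the file headers, with no strand, multi-mapping or multi-overlap option. The sources used here give neither adapter trimming nor the BWA version, nor how reads of near-identical arms such as miR-500-3p and miR-501-3p were placed.

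Rows were named by position: 1734 by a RefSeq mature entry, 95 by a RefSeq hairpin, 272 by a GENCODE vM21 hairpin, and 9 kept their ID. Tests used edgeR 4.0.16 (R 4.3.3) with TMM scaling, filterByExpr (minimum count 10), a model of group alone and Benjamini-Hochberg adjustment over 536 rows; the SE is the log2 fold change divided by the square root of F. Exact intervals are Clopper-Pearson or Poisson (scipy 1.17.1). The fit was also run on counts simulated with means and dispersions estimated from these libraries, which cannot check those estimates. Alternatives were RLE or no scaling, no filter or 10 CPM in 2 libraries, DESeq2 1.42.0, limma-voom 3.58.1, the replicate block, summed identical rows and leaving out each library. With 2 against 2, an exact two-sided permutation test cannot give a p below 0.33, so none was run. All members are named, with the 5 rows most like their sum. Members and lists were chosen with earlier results of these data known. No mature sequence is given for miR-532-5p.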

Additional observations from a re-analysis of the deposited data

How the results depend on the processing

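With 2 libraries per group, the calls changed with the tool and settings: edgeR called 51 rows and 0 members. It called 131 rows and 1 member (miR-532-3p) with no filter, 91 and 1 (miR-532-5p) with at least 10 CPM in 2 libraries, and 127 and 2 (both Mir532 arms) with the replicate block. DESeq2 called 106 and 2 (both Mir532 arms), limma-voom 79 and 1 (miR-532-5p). The cause was not tested. Deviations of same-numbered libraries correlated at 0.00316 over 536 rows. With 2 libraries per group, that 1 value cannot show whether the replicate numbers mark a shared batch. Leaving out 1 library gave 0 to 30 called rows (30 without damaged replicate 2, otherwise 0, with 103 to 144 at an unadjusted p under 0.05) and 0 members each time, and a group left with 1 library is assumed to vary like the other. Under these 4 fits the log2 fold change ran from -0.49 to 0.28 for miR-188-5p, -0.018 to 0.72 for miR-362-5p, -0.012 to 1.09 for miR-362-3p, -0.25 to 0.28 for miR-501-5p and -6.99 to 0.44 for miR-500-5p, where the lowest is a fit to a library at 0 and no bound. miR-532-5p, miR-532-3p, miR-500-3p and miR-501-3p kept their sign in all 12 alternatives. The summed members went from -0.37 to 0.49 without miR-532-5p, and the latter ran from 0.33 to 0.66 on 3 libraries (chosen after seeing the data). Of 107 member values under alternatives, 93 kept direction and side of the threshold, 7 passed it and 7 changed sign.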
